A study of Mus musculus with 6 samples.

Results

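The transcripts followed here belong to 44 genes of the primary cilium and of the polycystin system. These genes were picked by name for their roles in that organelle, with earlier results of these data known. They are 44 of the 24852 mouse genes to which the counted transcript identifiers could be assigned, and 32 of them held enough reads for a test, among 10522 genes tested in all. The mice were male C57BL/6J, a common inbred background, and ate for 5 days either a low-NaCl diet (0.01 to 0.02% sodium) or a high-NaCl diet (2.4% sodium). RNA of their kidney collecting duct cells was then sequenced. Each diet has 3 libraries, numbered 1 to 3, and no genetic change or drug is named for either. Neither the way of isolating the cells nor the number of animals behind a library is given in the labels, so p-values measure the spread between libraries, which may be technical.

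The primary cilium is a single, non-motile projection of the cell surface that senses the urine stream in kidney tubules. Polycystin-1 and the channel polycystin-2 sit in its membrane, and their loss gives polycystic kidneys. Trains of intraflagellar transport (IFT) proteins carry cargo into it by a kinesin motor and out by a dynein motor, the BBSome moves membrane proteins through it, and the transition zone at its base is a gate for what enters. In the collecting duct, principal cells, which reabsorb sodium and water, carry a prominent primary cilium, whereas mature intercalated cells, which move acid and base, mostly do not.

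Of the 44 genes, 32 could be compared between the diets and 12 had too few reads. Cc2d2a, which encodes a C2-domain protein of the transition zone, fell 1.94-fold on the low-NaCl diet and was the one member that passed the test. None rose. Of all tested genes 3.4% passed, 1.7% as lower. The fitted differences of the other 31 tested members lay between -0.64 and 0.59 on the log2 scale, and those of the polycystin and fibrocystin genes were -0.10 for Pkd1, 0.29 for Pkd2 and -0.13 for Pkhd1. The transition zone genes had the lowest median of the member groups with more than 1 tested gene, at -0.36, with 7 of 8 below 0. The BBSome group was close, at -0.31, and 50.2% of all tested genes lay below 0.

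Depth was 40334731 to 41701319 counts per library on the low-NaCl diet and 40101899 to 46861531 on the high-NaCl diet, with mitochondrial shares of 20.5 to 21.8% and of 21.9 to 29.9%. Both libraries numbered 1 ran together in lane 1 of the sequencer, while those numbered 2 and 3 ran in lane 2 for low-NaCl and in lane 3 for high-NaCl, so outside lane 1 lane and diet cannot be told apart. Marker transcripts of the 2 main cell types of the duct moved with diet. The 8 principal cell markers summed to 3121 to 4761 CPM (reads scaled to a common library size, with TMM factors) on the low-NaCl diet and to 8774 to 10930 CPM on the high-NaCl diet, with 3 of 7 tested lower. Most of each sum came from these 3, Aqp2, Aqp3 and Scnn1g. Their means were 2870, 874 and 303 CPM on the low-NaCl diet and 6962, 2102 and 731 CPM on the high-NaCl diet. The 8 intercalated cell markers summed to 2711 to 5240 CPM and to 1812 to 2112 CPM, with 5 of 8 higher. In bulk RNA, fewer cells of a type and less RNA per cell cannot be told apart, and the part of cell makeup in any difference below was not tested.

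The deposited counts belong to transcript identifiers, and a read in an exon shared by several identifiers was not counted. The countable share of a gene, the percentage of its exonic bases that lie in a single identifier, therefore sets what could be seen. Its median was 52.4% over the 44 genes and 84.4% over all tested genes. It was 100% for 11 members, which have 1 identifier each, and under 10% for 9 members. All but 1 of the 12 untested members had a countable share under 50%. They are Ift52, Ift43, Ift122, Bbs7, Bbs9, Bbs12, Invs, Rpgrip1l, Kif3a, Kif17 and Arl6, and the other, Tmem67, had 3 counted reads at 50.03%. Bbs7 and Kif17 had no counted read in any library. With 3 reads as the limit that a count of 0 allows, that is less than 0.0574 to 0.0825 CPM per library within the 24.6% and 12.6% of their exonic bases that could be counted.

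**Figure D1:**
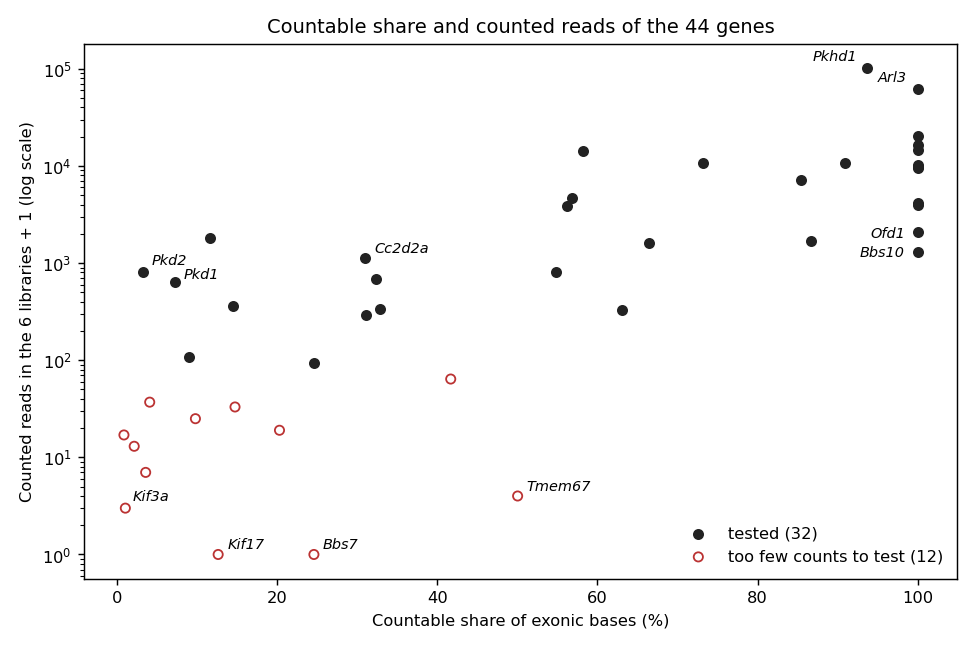
Counted reads over the 6 libraries plus 1 (vertical, log scale) against the countable share of exonic bases in percent (horizontal) for the 44 genes, with filled points for the 32 tested and open points for the 12 with too few reads. Pkd1 and Pkd2 lie at the left edge with 635 and 811 reads, Pkhd1 at the upper right with 101222.

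What was counted of Pkd2 and of Cc2d2a can be shown as sequence. The 2 identifiers of Pkd2 differ by a single exon, exon 7 of 15, and all 811 counted reads belong to the identifier that has this exon, the only part of the gene that could be counted. Those reads therefore measure transcripts with exon 7. For Cc2d2a the countable share was 31.0%, and 99.7% of the reads belong to 1 of its 5 identifiers, that with 40 exons. The 880 countable bases of this identifier lie in exons 1 to 4, in part of exon 32 and in exon 40. No exon of another GENCODE gene overlaps them on either strand. The coding stretches are printed below as exon 7 of Pkd2 and as the largest countable coding stretch of Cc2d2a, from GENCODE transcripts on build mm10, both on the plus strand.
Pkd2, chr5:104486647-104486814: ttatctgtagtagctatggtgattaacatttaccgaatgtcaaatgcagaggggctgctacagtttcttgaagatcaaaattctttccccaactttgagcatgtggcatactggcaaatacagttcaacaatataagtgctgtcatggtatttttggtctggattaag
Cc2d2a, chr5:43740666-43740851: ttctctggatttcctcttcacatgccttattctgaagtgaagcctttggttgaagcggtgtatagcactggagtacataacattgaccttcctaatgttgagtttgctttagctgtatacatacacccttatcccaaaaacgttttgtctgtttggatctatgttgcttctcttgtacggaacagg

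Promoters of ciliary genes are known to hold X-boxes, the binding sites of RFX transcription factors, and these were looked for as a feature that the choice of members did not use. The motif searched was GTNNCC followed by 0 to 3 further bases and NGNAAC, on both strands. Of the 40 members with a promoter in the RefSeq table (GRCm38.p6, 250 bases before to 50 after a start site), 10 held it, or 25.0%, against 5.94% of the 27025 genes with a promoter there and 6.73% of those tested here. Bbs7 and Kif17, both without a counted read, are among the 10. The sites of the 8 such members that were tested are printed on the strand of the gene, with the match in capitals and 8 bases on either side. The search pattern set in advance how alike the capitals are. Those of Bbs1, Ift74, Tmem216 and Tmem231, and of Ift57 at 49699199, match the motif only when read on the opposite strand. A match is a description of the letters and not of binding.
Mks1, chr11:87853183-87853212, plus strand: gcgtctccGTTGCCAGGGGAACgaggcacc
Ift57, chr16:49699226-49699254, plus strand: gccctgcgGTTGCCTGGTAACggtgggga
Ift57, chr16:49699199-49699228, plus strand: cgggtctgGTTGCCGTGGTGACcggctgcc
Bbs1, chr19:4906605-4906634, minus strand: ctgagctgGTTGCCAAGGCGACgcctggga
Tmem231, chr8:111933781-111933810, minus strand: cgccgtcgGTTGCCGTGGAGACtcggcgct
Bbs4, chr9:59353464-59353493, minus strand: ctcagctgGTCGCCCGGGAAACggtcggct
Ift74, chr4:94614478-94614506, plus strand: cggtgaccGTTGCTAGGATACgcggcgtc
Nphp4, chr4:152477903-152477932, plus strand: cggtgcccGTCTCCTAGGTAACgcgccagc
Tmem216, chr19:10555723-10555752, minus strand: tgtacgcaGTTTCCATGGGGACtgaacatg
The median log2 difference between the diets was -0.27 over these 8 members and -0.15 over the 22 tested members with a promoter and no match.

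None of the 3 polycystin and fibrocystin genes passed the test. Pkhd1 encodes fibrocystin, a large membrane protein of the cilium that is altered in recessive polycystic kidney disease, and it had the most reads of the 44 genes. It measured 369.5, 367 and 405 CPM in low-NaCl libraries 1 to 3 and 373, 441 and 438 CPM in high-NaCl libraries 1 to 3. The high-NaCl library 1 lay among the low-NaCl libraries, so the diets overlapped. The log2 difference was -0.13 ± 0.14 (SE, low-NaCl minus high-NaCl, adjusted p = 0.673) with a 95% interval of -0.45 to 0.18, and the difference within lane 1 was -0.013.

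Pkd1, on chromosome 17 (24549834 to 24596508), encodes polycystin-1, the gene most often altered in dominant polycystic kidney disease. It had 2.93, 2.28 and 2.05 CPM on the low-NaCl diet and 2.47, 2.81 and 2.47 CPM on the high-NaCl diet, from the 7.196% of its exonic bases that could be counted. The log2 difference was -0.10 ± 0.23 (adjusted p = 0.859), with an interval of -0.61 to 0.41. It was 0.01 without low-NaCl library 3 and 0.24 within lane 1.

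Pkd2 encodes the channel partner polycystin-2. Its exon 7 had 3.28, 3.07 and 4.25 CPM on the low-NaCl diet and 2.36, 2.79 and 3.51 CPM on the high-NaCl diet. High-NaCl libraries 1 and 2 lay below every low-NaCl library and high-NaCl library 3 among them. The log2 difference was 0.29 ± 0.24 (adjusted p = 0.565), with an interval of -0.24 to 0.82.

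At the transition zone, Cc2d2a lies on chromosome 5 (43662346 to 43740972) and was measured almost only through 1 of its 5 identifiers. It had 3.03, 2.60 and 3.37 CPM in the low-NaCl libraries and 5.83, 5.72 and 5.96 CPM in the high-NaCl libraries. Every low-NaCl library lay well below every high-NaCl library, and the high-NaCl libraries were close together. The means were 3.0 ± 0.389 CPM on the low-NaCl diet and 5.83 ± 0.121 CPM on the high-NaCl diet (SD, n = 3 each), with a log2 difference of -0.96 ± 0.19 and an adjusted p of 0.0303 by edgeR. So 1 of 32 tested members was called, where 3.4% of all tested genes were, 1.7% as lower and 1.7% as higher. Within lane 1 the log2 difference was -0.94. The call ended without low-NaCl library 2 (adjusted p = 0.151), low-NaCl library 3 (0.0764), high-NaCl library 1 (0.0675) or high-NaCl library 3 (0.104), and with scaling by total counts alone (0.086), while the log2 difference stayed between -1.05 and -0.86 in these fits. With lane as a term the diet difference rests on 1 library per diet, those of lane 1, and no call was made (-0.94, adjusted p = 0.365).

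Mks1, a protein of the Meckel syndrome complex at the transition zone, had 16.99, 15.6 and 15.6 CPM on the low-NaCl diet and 20.1, 22.3 and 18.6 CPM on the high-NaCl diet. The diets did not overlap, and the log2 difference of -0.34 ± 0.14 did not pass (adjusted p = 0.244). Tmem231, a membrane protein of the same complex, was likewise separated by diet, at 41.8, 39.0 and 35.9 CPM against 44.96, 48.4 and 45.5 CPM, with a log2 difference of -0.25 ± 0.12 (adjusted p = 0.325).

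Ofd1 encodes a protein of the distal centriole, on which the cilium is built. Its libraries held 6.78, 6.26 and 7.60 CPM on the low-NaCl diet and 7.75, 10.8 and 9.50 CPM on the high-NaCl diet. The highest low-NaCl library lay just under the lowest high-NaCl library, and the log2 difference was -0.45 ± 0.19 (adjusted p = 0.242).

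B9d1, which encodes a B9-domain partner of Mks1, had 61.2, 42.8 and 48.5 CPM on the low-NaCl diet and 79.4, 54.4 and 63.7 CPM on the high-NaCl diet. The diets overlapped, and the log2 difference was -0.37 ± 0.18 (adjusted p = 0.316). Nphp4 (-0.37 ± 0.22, adjusted p = 0.417) encodes nephrocystin-4, and Tmem216 (-0.16 ± 0.19, adjusted p = 0.704) another membrane protein of the zone. Cep290 encodes the protein that links the zone's microtubules to the membrane and was the one tested member of the group with a positive difference, 0.30 ± 0.34 (adjusted p = 0.702), at 1.45 ± 0.260 CPM against 1.18 ± 0.505 CPM.

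Over the transition zone and inversin group, 1 of 8 tested genes fell and none rose, beside 1.7% and 1.7% of all tested genes. The 4 genes Cc2d2a, Mks1, Tmem231 and Ofd1 lay lower in all low-NaCl than in all high-NaCl libraries. Over all members 5 of 32 did so, the fifth being Bbs2, and 1 lay higher, against 11.6% and 12.3% of all tested genes. The group's median log2 difference of -0.36 stood beside a median of -0.00 over all tested genes. It was -0.22 within lane 1 and ranged from -0.41 to -0.25 when each library was left out in turn.

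**Figure D2:**
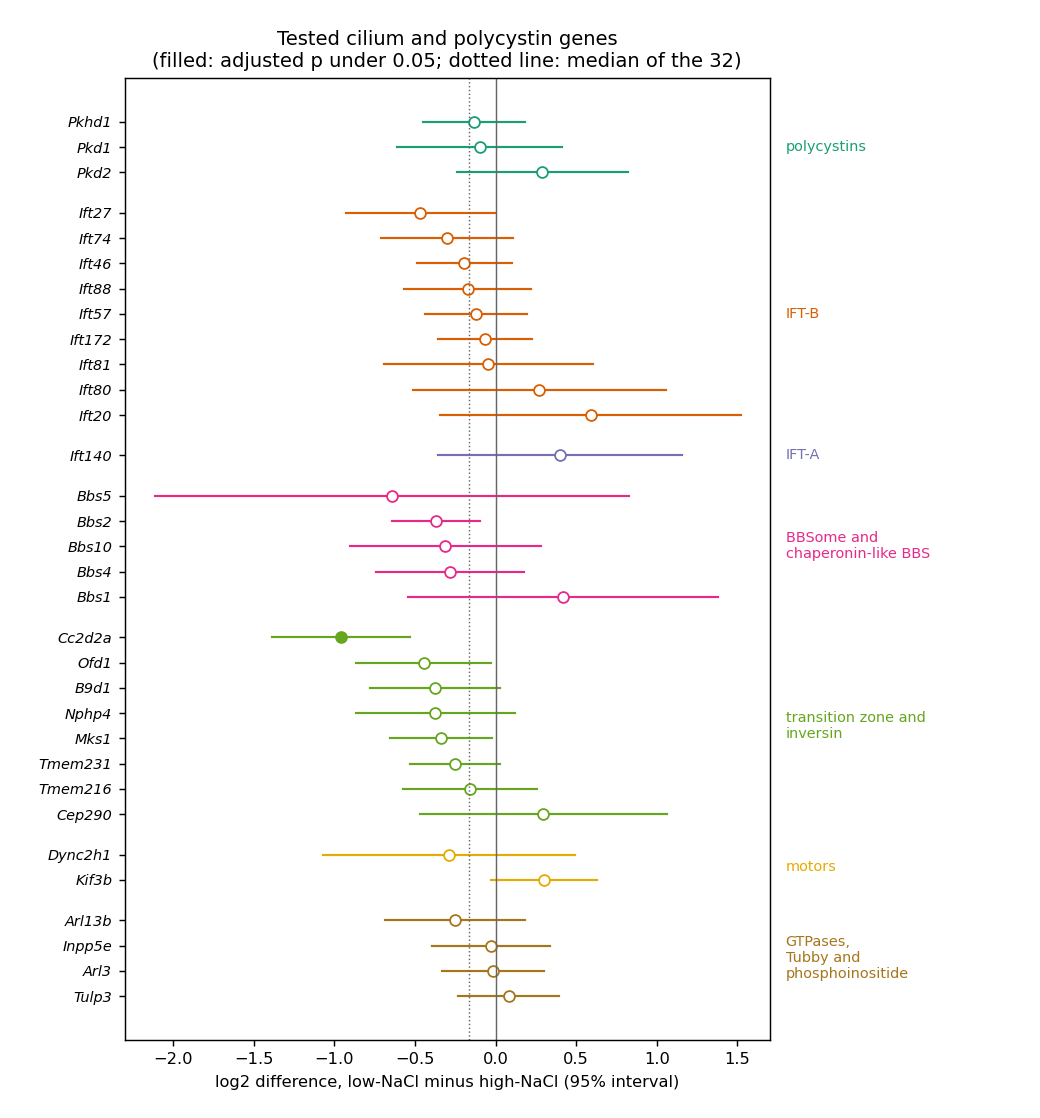
Log2 difference, low-NaCl minus high-NaCl, with 95% intervals for the 32 tested genes, grouped by role, where the filled point passed the test. Cc2d2a lies at -0.96, and the dotted line is the median of the 32 at -0.17.

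The BBSome carries membrane proteins along the cilium and was measured mainly through Bbs2 and Bbs4. Bbs2 had 55.8, 58.7 and 53.2 CPM on the low-NaCl diet and 65.9, 75.7 and 74.9 CPM on the high-NaCl diet. The diets did not overlap, and the log2 difference was -0.37 ± 0.12, with an adjusted p of 0.142 and an interval of -0.64 to -0.09. Bbs4 had 29.0, 38.3 and 35.4 CPM on the low-NaCl diet and 31.9, 55.0 and 37.9 CPM on the high-NaCl diet. High-NaCl library 2 stood above the other libraries. The gene Adpgk overlaps 194 of the 2542 bases counted on the opposite strand, and its reads there cannot be told apart without strand. The difference was -0.28 ± 0.21 (adjusted p = 0.516).

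Bbs10 encodes a chaperonin-like protein that helps to assemble the BBSome. It averaged 4.55 ± 0.606 CPM on the low-NaCl diet and 5.64 ± 1.85 CPM on the high-NaCl diet, with a log2 difference of -0.31 ± 0.26 (adjusted p = 0.585) that was 0.55 within lane 1. The subunit genes Bbs5 and Bbs1 had 106 and 92 counted reads in all 6 libraries, and their differences of -0.64 ± 0.66 and 0.42 ± 0.43 had wide intervals. That of Bbs5 was 0.02 without high-NaCl library 2. None of the 5 tested genes passed.

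**Figure D3:**
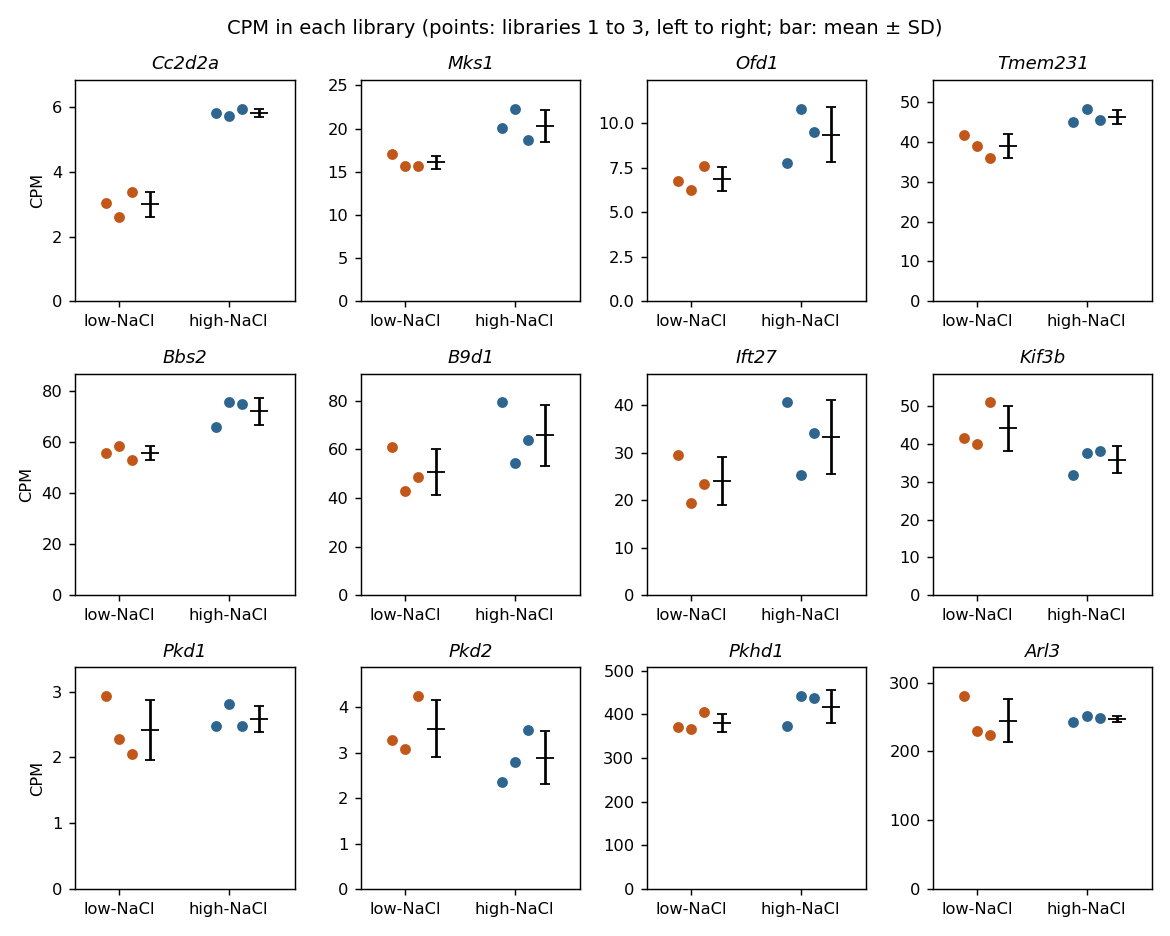
CPM of 12 genes in each library, low-NaCl left and high-NaCl right, with the mean ± SD beside each diet. The diets are apart for Cc2d2a, Mks1, Ofd1, Tmem231, Bbs2 and Kif3b, and they overlap for the other panels.

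Of the IFT-B complex, which drives transport towards the tip, 9 of 10 genes were tested and none passed, with a median log2 difference of -0.12. Ift27, a small GTPase that hands cargo to the BBSome, had the lowest value, -0.47 ± 0.21 (adjusted p = 0.270). Its libraries held 29.4, 19.4 and 23.4 CPM on the low-NaCl diet and 40.6, 25.2 and 34.2 CPM on the high-NaCl diet. Library 1 was the highest of each diet, so that the diets overlapped although each low-NaCl library was below the high-NaCl library of the same number. The numbers are not shown to pair the libraries, and only those numbered 1 share a lane.

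Ift88, whose loss in mice gives short cilia and cystic kidneys, averaged 14.7 ± 0.504 CPM on the low-NaCl diet and 16.6 ± 3.32 CPM on the high-NaCl diet. Its log2 difference of -0.17 ± 0.18 (adjusted p = 0.660) was 0.18 within lane 1. Ift74, one of the tubulin-binding pair with Ift81, had a difference of -0.30 ± 0.18 (adjusted p = 0.432), and Ift46, a core subunit, of -0.19 ± 0.13 (adjusted p = 0.483).

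Gm15518 and Ift88os overlap 225 counted bases of Ift57 and 67 of Ift88 on the opposite strand, and Trappc2 overlaps 131 of Ofd1. Ift57, a peripheral subunit, and Ift172, the largest one, had differences of -0.12 ± 0.14 and -0.07 ± 0.13, with intervals of -0.44 to 0.20 and -0.36 to 0.23. Ift20, which also works at the Golgi, had 1.27, 1.53 and 1.25 CPM on the low-NaCl diet and 0.495, 1.53 and 0.612 CPM on the high-NaCl diet, with a difference of 0.59 ± 0.42 (adjusted p = 0.506). High-NaCl library 2 was level with the highest low-NaCl library, and the other high-NaCl libraries were lower. Ift80 (0.27 ± 0.35) and Ift81 (-0.05 ± 0.29) overlapped as well.

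Of the IFT-A complex, which returns cargo to the base, 1 of 3 genes could be tested. Ift140 had 358 reads in all and a log2 difference of 0.40 ± 0.34 (adjusted p = 0.582), which was -0.073 within lane 1.

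Among the motors, Kif3b, a subunit of the kinesin-2 that pulls trains outwards, was the one member of the 44 that lay higher in all low-NaCl than in all high-NaCl libraries. It had 41.6, 40.1 and 51.1 CPM on the low-NaCl diet and 31.8, 37.6 and 38.3 CPM on the high-NaCl diet. The log2 difference was 0.30 ± 0.15 and did not pass (adjusted p = 0.317). Its partner Kif3a had 2 counted reads at a countable share of 1.04% and gives no information. Dync2h1, the heavy chain of the returning dynein, had a difference of -0.29 ± 0.35 (adjusted p = 0.717) from 334 reads.

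No tested gene for small GTPases and lipid regulators of the ciliary membrane passed. Arl3, which releases lipid-anchored cargo inside the cilium, had 280.4, 229.8 and 224.2 CPM on the low-NaCl diet and 243, 251 and 248 CPM on the high-NaCl diet. The high-NaCl libraries lay within the range of the low-NaCl ones, and the difference was -0.02 ± 0.14, with an interval of -0.33 to 0.30. Arl13b, a GTPase bound to the ciliary membrane, had -0.25 ± 0.19 (adjusted p = 0.546). Tulp3, which carries receptors into the cilium, had 0.08 ± 0.14, and Inpp5e, a phosphoinositide phosphatase of the cilium, -0.03 ± 0.16, with intervals of -0.23 to 0.39 and -0.39 to 0.34.

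Levels can be compared between genes only per length, and this was done for the 15 members that were at least 80% countable. The length is the countable bases of all identifiers of a gene, also those with few or no reads. For Arl13b the identifier with 100% of the reads holds 2847 of 4406 such bases. For Ift27 and Tulp3 the identifiers with 99.9% and 99.8% hold 726 of 1692 and 2871 of 5008. These levels would be higher over that identifier alone, so the order holds for this measure only. Arl3 was the most abundant, at 298 ± 37.6 CPM per countable kb on the low-NaCl diet and 301 ± 5.06 on the high-NaCl diet. B9d1 followed at 64.7 ± 11.99 and 83.9 ± 16.0, and Pkhd1 at 29.2 ± 1.62 and 32.1 ± 2.95. Ift46 and Bbs2 came next, at 22.9 ± 1.22 and 19.0 ± 0.936 on the low-NaCl diet and 26.2 ± 2.92 and 24.5 ± 1.84 on the high-NaCl diet, and on the high-NaCl diet their spreads overlapped. By this measure the lowest levels were those of Bbs10, Ofd1 and Arl13b, at 1.65 ± 0.220, 1.55 ± 0.151 and 1.39 ± 0.263 on the low-NaCl diet and 2.05 ± 0.672, 2.10 ± 0.346 and 1.65 ± 0.102 on the high-NaCl diet. On the low-NaCl diet these 3 did not differ beyond their spread. On the high-NaCl diet Bbs10 overlapped both others, and the mean ± SD of Ofd1 and of Arl13b did not meet. Between the ends lay Ift57, Ift27 and Bbs4, at 14.2 ± 1.76, 14.2 ± 2.97 and 13.5 ± 1.88 on the low-NaCl diet and 15.5 ± 1.46, 19.7 ± 4.57 and 16.4 ± 4.73 on the high-NaCl diet, with overlapping spreads in each diet. Below them came Tulp3, Kif3b, Ift74 and Ift88, at 8.82 ± 0.477, 7.86 ± 1.06, 7.03 ± 0.983 and 4.78 ± 0.164 on the low-NaCl diet and 8.34 ± 1.19, 6.38 ± 0.635, 8.66 ± 1.54 and 5.38 ± 1.08 on the high-NaCl diet.

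**Figure D4:**
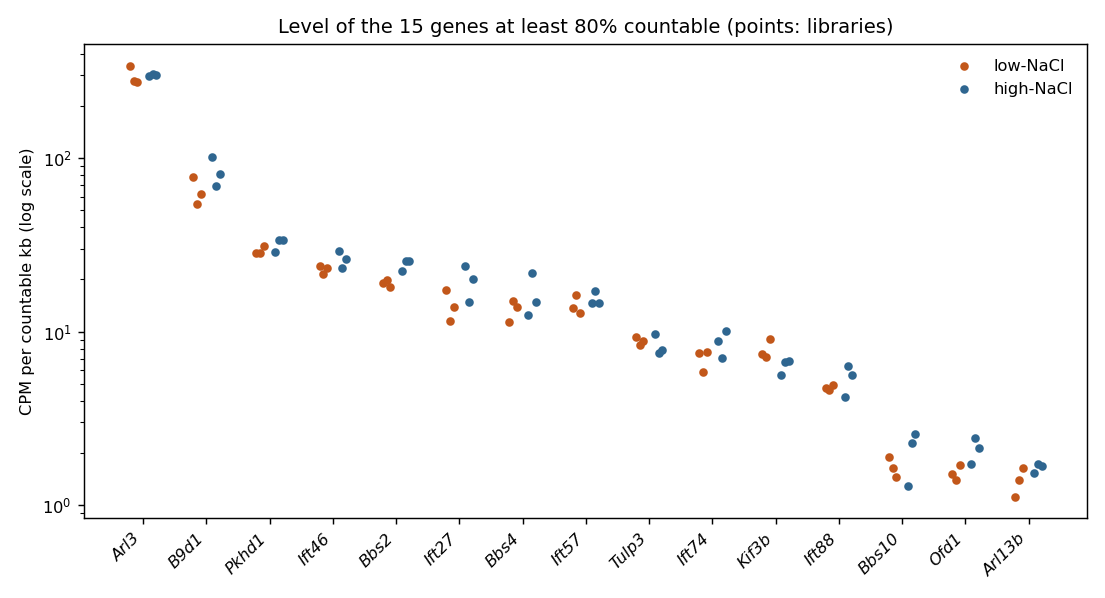
CPM per countable kb (log scale) of the 15 genes that were at least 80% countable, in order of their mean, with 1 point per library and low-NaCl left of high-NaCl. Arl3 is at the top near 300 and Bbs10, Ofd1 and Arl13b are lowest. The length includes identifiers of a gene with few or no reads.

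The members were also set side by side in each library. The median deviation of the 32 tested members from their own means was -0.02, -0.11 and -0.02 in low-NaCl libraries 1 to 3 and -0.03, 0.10 and 0.15 in high-NaCl libraries 1 to 3, on the log2 scale. High-NaCl library 2 held the highest value of 13 members, and low-NaCl library 2 of none. The high-NaCl library 1, which shares its lane with low-NaCl library 1, was about level with it. Over the 32 genes 24 fitted differences lay below 0, against 50.2% of all tested genes, and the median was -0.17 against -0.00. Within lane 1 they were 20 of 32, against 49.4%, with a median of -0.076, and without high-NaCl library 2 the median was -0.068. At an unadjusted p under 0.05, 5 of the 32 were lower and none higher, where 18.3% of all tested genes passed that level in either direction and 9.12% as lower.

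Other genes of the organelle, from lists of genes that are not members, were measured beside them. Of 49 further genes of IFT, the BBSome, the transition zone, motors and the basal body, 32 were tested, 1 fell and none rose, with 22 of 32 differences below 0 and a median of -0.22. Of all tested genes 1.7% fell and 1.7% rose, and 50.2% lay below 0. The gene that fell is Nek8, a kinase of the inversin compartment next to the transition zone that is altered in nephronophthisis. It had 83.1, 75.6 and 74.5 CPM on the low-NaCl diet and 136, 108 and 119 CPM on the high-NaCl diet, from a fully countable transcript. The diets were apart, with a log2 difference of -0.64 ± 0.13 (1.56-fold lower, adjusted p = 0.036), and of -0.71 within lane 1. Leaving out any of low-NaCl libraries 2 and 3 and high-NaCl libraries 1 and 3 ended the call (adjusted p 0.0756 to 0.169), as did scaling by total counts (0.0747), with log2 differences of -0.65 to -0.54. With lane as a term, again 1 library per diet, the adjusted p was 0.287.

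Anks6, the ankyrin-repeat partner that activates Nek8, had 3.38, 2.60 and 3.21 CPM on the low-NaCl diet and 4.73, 4.25 and 4.10 CPM on the high-NaCl diet. Its diets were apart too, and its log2 difference of -0.51 ± 0.20 did not pass (adjusted p = 0.218). Of the 11 tested genes in this further transition zone and inversin list, 9 lay below 0, with a median of -0.27, and 1 passed. Over all tested genes the shares were 50.2% and 3.4%.

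In the remaining structural lists no gene passed. Ttc30b, an IFT-B subunit gene with a near-identical copy between which reads may be split, had -0.32 ± 0.15 (adjusted p = 0.313), and Ttc21b, of IFT-A, 0.78 ± 0.48 (adjusted p = 0.436) at under 1.1 CPM in every library. Wdr34, an intermediate chain of the ciliary dynein, had -0.39 ± 0.15 (adjusted p = 0.202), and Tctex1d2, a light chain, -0.39 ± 0.23 (adjusted p = 0.407). Pcm1, the scaffold of centriolar satellites, had -0.46 ± 0.17 (adjusted p = 0.184) and lay lower in all low-NaCl libraries, and Alms1, a centriolar protein altered in Alström syndrome, had -0.38 ± 0.29 (adjusted p = 0.547). Bbip1 and Lztfl1, a subunit and a regulator of the BBSome, lay higher in all low-NaCl libraries at under 1 CPM, with 0.96 ± 0.44 and 0.63 ± 0.33 (adjusted p = 0.285 and 0.355) from countable shares of 6.54% and 3.65%.

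Among 6 tested genes linked to cysts or to the making of polycystins, 1 rose and none fell, beside 1.7% and 1.7% of all tested genes. Dnajb11, a co-chaperone of the endoplasmic reticulum that is altered in an atypical polycystic kidney disease, had 73.9, 74.5 and 88.4 CPM on the low-NaCl diet and 37.2, 48.3 and 37.8 CPM on the high-NaCl diet. It was 1.92-fold higher (log2 difference 0.94 ± 0.15, adjusted p = 0.0133, 0.99 within lane 1). Its countable share was 49.7%, and 99.96% of its reads belong to 1 identifier with 376 countable bases. Leaving out low-NaCl library 3 (adjusted p = 0.0515), leaving out high-NaCl library 3 (0.0767) and scaling by total counts (0.0556) each ended the call, with log2 differences of 0.85, 0.88 and 1.01. With lane as a term and so 1 library per diet, the adjusted p was 0.242. Cys1, which encodes the ciliary protein cystin, lay lower in all low-NaCl libraries, with -0.43 ± 0.21 (adjusted p = 0.322) at a countable share of 1.69%.

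The lists of regulators and signalling genes gave no call. Of 5 RFX factor genes 2 were tested. Rfx7 had 16.4, 17.5 and 18.8 CPM on the low-NaCl diet and 20.6, 22.9 and 23.8 CPM on the high-NaCl diet, with a log2 difference of -0.35 ± 0.14 that did not pass (adjusted p = 0.217), and Rfx1 had 0.07 ± 0.15. Hedgehog signalling runs through the cilium, and of its 4 tested genes the 2 with the smallest p were Ptch1, the receptor, at 0.16 ± 0.18, and Gli3, a transcription factor, at 0.47 ± 0.67. Of the genes for dismantling cilia, Hdac6 (-0.27 ± 0.61) and Plk1 (-0.69 ± 0.50) had under 1 CPM in every library.

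Genes of motile cilia, which kidney tubule cells lack, were low: the 11 genes found in the files summed to 2.93 to 3.53 CPM on the low-NaCl diet and 3.74 to 4.84 CPM on the high-NaCl diet. None of 6 tested passed. Ccdc39 and Tekt1 lay lower in all low-NaCl libraries, as did 11.6% of all tested genes. Their log2 differences were -0.64 ± 0.26 (adjusted p = 0.226) and -1.62 ± 0.45 (adjusted p = 0.0838), from 320 and 87 reads in all. Tekt1 had under 1 CPM in every library.

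**Figure D5:**
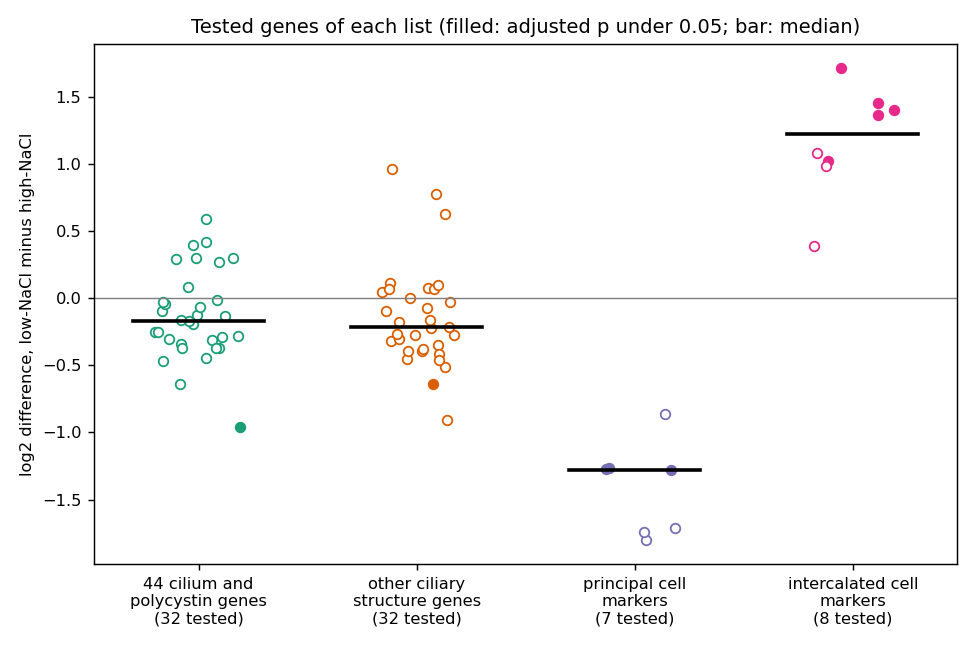
Log2 difference, low-NaCl minus high-NaCl, of each tested gene in 4 lists, with the median as a bar and filled points for genes that passed the test. The medians are -0.17 for the 32 cilium and polycystin genes, -0.22 for 32 further ciliary structure genes, -1.28 for 7 principal cell markers and 1.22 for 8 intercalated cell markers.

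The medians of the cilium lists lay nearer 0 than those of the principal and intercalated cell markers in the same libraries, although single genes overlapped. The 7 tested principal cell markers had log2 differences of -1.80 to -0.86, and the 8 intercalated cell markers of 0.39 to 1.72. Both ends of the principal cell range come from genes with small countable shares, Hsd11b2 (2.27%) and Avpr2 (23.7%). Scnn1b and Fxyd4 had shares of 5.97% and 0.404%, and none of these genes passed. Aqp2, Aqp3 and Scnn1g, which passed, were fully countable and lay at -1.28, -1.27 and -1.27. Aqp2, the water channel of principal cells, fell 2.43-fold on the low-NaCl diet (log2 difference -1.28, adjusted p = 0.0224 by edgeR). The intervals of Pkhd1 (-0.45 to 0.18) and Arl3 (-0.33 to 0.30) do not include that value. Those of Cc2d2a (-1.39 to -0.53) and Bbs5 (-2.11 to 0.83) do. Cc2d2a, at -0.96, came nearest to Aqp2 among the members. These genes were set beside Aqp2 after their values were seen, and what the comparison means for cell makeup was not tested. Among other cell types, proximal tubule markers summed to 19.6 to 37.3 CPM on the low-NaCl diet and 31.2 to 35.0 CPM on the high-NaCl diet, podocyte markers to 3.96 to 37.3 and 17.4 to 36.9 CPM, and thick limb and distal convoluted tubule markers to 84.9 to 91.1 and 43.5 to 61.9 CPM. Of the 3 tested genes in the thick limb and distal convoluted tubule list, 1 was called higher, beside 1.7% of all tested genes. It was Slc12a1, with a log2 difference of 0.92 (adjusted p = 0.0159 by edgeR) at a countable share of 24.5%. Endothelial, stromal, immune and red cell markers each summed to under 5 CPM in every library. Some of them could hardly be counted, with countable shares of 0% for Pecam1, 0.35% for Pdgfrb, 2.27% for Alas2 and 19.2% for Ptprc. Cdh5, Col1a1, Lyz2 and Hba-a1 were fully countable. Umod, of the thick limb list, had a share of 2.27%. Low sums therefore do not show that such cells were absent. The part of these in the results was not tested.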

How the data were processed

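The authors deposited 1 file of raw read counts per library. Per the file headers, featureCounts 1.5.0-p3 counted reads in the exons of UCSC transcripts on mm10. No option for strand, overlaps or multi-mapped reads appears there. FastQC, Subread and edgeR are named in the submitters' processing notes, and the aligner is not given in the sources used here. There are 59121 transcript identifiers. Each was assigned to the GENCODE M21 gene (GRCm38, the assembly behind mm10) that covered at least 50% of its exonic bases on the same strand, with identical introns preferred. This matched 52383 identifiers with 94.4% of counts, summed to 24852 genes. The other 6738 identifiers (5.65% of counts) entered library sizes only.

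Genes were tested in R 4.3.3 with edgeR 4.0.16 (limma 3.58.1; Python 3.11.15 for tables): filterByExpr by diet, TMM factors, glmQLFit with robust estimation and glmQLFTest of diet, no covariate, all 6 libraries, Benjamini-Hochberg adjustment over 10522 genes and a threshold of 0.05, which called 179 genes higher and 179 lower. The SE is the absolute log2 difference over the square root of F, and 95% intervals use the test's degrees of freedom. The procedure was tested on simulated data. Lane differences use log2 of counts plus 0.5, and lanes come from the file headers. Libraries of the same diet differed beyond sampling noise (chi-square over its degrees of freedom 30.7 to 208), and each was treated as 1 sample. This does not show that they come from separate animals.

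The members and lists were chosen with earlier results of these data known. Genes named are the polycystin genes, called members, the 24 members with the smallest p, and of each other list called genes and the 2 with the smallest p. Further members and the untested ones are named for completeness, after their values were seen. The listed symbols Ttc30a2 and Dnai1 matched no gene. Alternatives were other scalings and filters, DESeq2 1.42.0, a replicate block, a lane term, leaving out each library, identical introns, single transcripts and genes at least 50% countable.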

Additional observations from a re-analysis of the deposited data

How the results depend on the processing

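No member was called higher in any of the alternatives run. The call of Cc2d2a as the 1 lower member was lost under total-count scaling, with a lane term, which leaves 1 library per diet (those of lane 1) to the diet difference, and with only genes at least 50% countable, which leaves Cc2d2a out (0 lower each), and 0 to 1 members were lower when each library was left out. The median over the members was -0.077 under total-count scaling, where that over all genes was 0.086 instead of -0.0019, and it was -0.075 with a lane term and -0.19 to -0.068 without each library. With a lane term, that of the transition zone members was -0.22. Over all genes the counts higher and lower were 80 and 55 with total-count scaling, 393 and 419 by DESeq2, 1 and 2 with a lane term (1 library per diet), and 32 to 289 and 36 to 252 without each library. With no filter 274 were lower. The labels do not say that the replicate numbers pair the libraries. Deviations of same-numbered libraries correlated at 0.30, 0.37 and -0.06 for numbers 1 to 3, and those of differently numbered libraries at -0.37 to 0.11. The values for numbers 1 and 2 thus lay above all differently numbered ones, and that for number 3 did not. Whether the libraries are paired cannot be settled from these values. With the replicate block 461 genes were higher and 440 lower, and 4 members were lower, the added ones being B9d1, Bbs2 and Ift27 (adjusted p = 0.0385, 0.0483 and 0.0332). Signs of uncalled genes turned in 15 of 693 values. With a lane term, which gives the lane 1 differences, these were Alms1 (0.16), Bbs10 (0.55), Gli3 (-2.42), Hdac6 (0.046), Ift140 (-0.072), Ift88 (0.18), Pkd1 (0.24) and Ptch1 (-0.0049). Without each library in turn, Bbs5 ranged from -1.04 to 0.015, Gli3 from -0.21 to 0.97, Hdac6 from -0.65 to 0.56, Pkd1 from -0.26 to 0.0086, Ptch1 from -0.014 to 0.31 and Rfx1 from -0.063 to 0.17. Beyond the fewer libraries in some fits, the cause of these changes was not tested. Of the 44 members 21 were under 50% countable, and 11 of these could not be tested.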
